A study of Mus musculus with 281 samples.

Results

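The 8 genes of the potassium and chloride secretion machinery of marginal cells examined here were *Kcnq1*, *Kcne1*, *Kcne2*, *Kcne3*, *Slc12a2*, *Bsnd*, *Stk39* and *Oxsr1*. They were taken as a named list, by a rule that uses no measured value, though the list was drawn up with earlier results of these data known, and are 8 of the 47752 genes in the deposited gene table. The samples were single cells of the stria vascularis, the epithelium on the lateral wall of the cochlear duct, from 129S6 mice, each drawn up by hand into a glass micropipette after collagenase treatment and made into a library with Smart-Seq2, a full-length method that primes on poly-A tails. Wild-type *Slc26a4*+/+ mice (WT) aged P22 to P42 gave 52, 26, 75 and 19 cells in the 4 run dates that the profiles carry, here called batches 1 to 4; 40 cells came from heterozygous *Slc26a4*+/- mice (HET) aged P26 to P33 and 69 from *Slc26a4*-/- mice (KO) aged P24 to P44. *Slc26a4* encodes pendrin, the anion exchanger lost in Pendred syndrome, and no group carried a transgene or a drug treatment in the labels. No label names the mouse a cell came from, so each genotype counts here as 1 sample and values are described without a test. Each SD is a spread between cells, except where it is said to be between sessions or batches.

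Marginal cells (MCs) line the endolymph side of the stria and secrete potassium. On their basolateral side, the Na-K-2Cl cotransporter NKCC1 (*Slc12a2*) and the sodium pump load the cell with potassium, and chloride that enters with it leaves again through chloride channels that need the accessory subunit barttin (*Bsnd*). On the apical side, potassium leaves through the channel formed by the pore subunit KCNQ1 and the single-span subunit KCNE1, and loss of either causes deafness. KCNE2 and KCNE3 are related subunits that keep KCNQ1 channels open in other epithelia such as stomach and gut. SPAK (*Stk39*) and OSR1 (*Oxsr1*) are kinases that phosphorylate and switch on NKCC1 under the control of WNK kinases.

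Cells were grouped by clustering that left out these genes and the pathway genes listed with them. Of 6 clusters, 4 met the naming rule from their markers: 21 MC-like cells, 86 intermediate cell-like (IMC-like) cells, 33 spindle cell-like (SC-like) cells and 36 root cell-like (RC-like) cells. A cluster of 88 cells led by *Slc4a1* and blood cell genes such as *Camp* and *Mpo*, and a cluster of 17 cells led by *Crhbp*, stayed unnamed. The *Slc4a1*-led cluster was mixed: 63.6% of its cells scored highest for the IMC markers, whose summed level in its WT cells had a median of 39096 CPM, so it was not used as a background that lacks the genes, and how far free RNA entered the shares below was not tested. Counts per cell ranged from 1848 to 7932729 (median 1312950), and 20 cells, WT in every case, had under 100000. All 8 MC markers, *Lrp2* and *Esrrb* among them, reached 10 CPM (counts scaled to the same total in each cell) on average in the MC-like cells of each genotype, and their summed level was 18394 to 56893 CPM in WT, 30008 to 33984 in HET and 25736 to 31840 in KO cells. The IMC markers, 10 pigment and intermediate cell genes, summed to 42.3 to 1573 CPM in the same WT cells, 231.4 to 509.8 in HET and 167.3 to 3863 in KO cells. The macrophage, endothelial, pericyte and hair cell lists had no marker at 10 CPM there. Other lists did. Of 7 SC markers, 6, 5 and 7 averaged 10 CPM or more in WT, HET and KO MC-like cells, with a median sum of 1167, 2136 and 3225 CPM. Of 4 basal cell markers, 3, 1 and 3 did (599.5, 505.6 and 1481 CPM), of 5 RC markers 3, 2 and 2 (8.08, 68.8 and 73.1 CPM), and of 4 fibrocyte markers 3, 2 and 2 (9.08, 37.4 and 97.1 CPM). Of 6 erythroid markers 3 did in WT alone, and 1 of 6 neutrophil markers did in HET alone. The part of these markers in the genotype differences below was not tested. The 14 WT MC-like cells were 2, 4 and 8 cells of batches 1, 2 and 3, both HET ones were of batch 4, and the KO ones were 2 of batch 2 and 3 of batch 4. *Slc26a4* itself did not check the labels, because its gene-level count does not separate the deleted part: in SC-like and RC-like cells together it averaged 968.5 CPM in 39 WT, 553.9 in 8 HET and 793.4 in 22 KO cells.

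The apical channel pair was high in every WT MC-like cell. *Kcnq1* ranged from 944 to 4843 CPM there, with a median of 1867 and a mean of 2372 ± 1179 (SD, n = 14 cells). *Kcne1* ranged from 2408 to 5440 CPM, with a median of 4491 and a mean of 4361 ± 888 (SD, n = 14). These cells came from 8 collection sessions, the combinations of run date and age, whose means ran from 944 to 3627 CPM for *Kcnq1* and from 3812 to 5053 CPM for *Kcne1*. The accessory subunit thus varied less between sessions (SD 520) than the pore subunit (SD 959).

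Outside the MC-like cluster the pair came apart. *Kcnq1* averaged 208.97 ± 289.5 CPM over 23 SC-like cells (SD) and 252.9 ± 473 over 16 RC-like cells (SD), but 4.7 ± 12.9 over 38 IMC-like cells (SD). It had 10 or more counts in 12 of 23 SC-like cells (52.2%, exact 95% binomial interval 30.6 to 73.2%), 6 of 16 RC-like cells (37.5%, 15.2 to 64.6%) and 4 of 38 IMC-like cells (10.5%, 2.94 to 24.8%). In the mixed *Slc4a1*-led cluster the share was 5 of 70 (7.14%, 2.36 to 15.9%). The *Crhbp*-led WT cells averaged 246.2 ± 407.5 CPM (SD, n = 11), near the SC-like and RC-like means, with 10 or more counts in 4 of 11 (36.4%, 10.9 to 69.2%). These intervals, like all those below, cover counting error only. After thinning each cell to 100000 counts, with 20 shallower cells left out, the shares with any *Kcnq1* count were 61.9% for the SC-like cluster, 46.7% for the RC-like, 13.2% for the IMC-like and 28.3% for the *Slc4a1*-led one. The *Crhbp*-led share was 54.5%.

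*Kcne1* had 10 or more counts in 10 of 38 IMC-like (26.3%), 7 of 23 SC-like (30.4%) and 5 of 16 RC-like WT cells (31.3%). The mixed *Slc4a1*-led cluster had 19 of 70 (27.1%, exact 95% interval 17.2 to 39.1%), and thinning gave 31.6%, 38.1%, 33.3% and 35.8% in the same order. The median cell held 0.7, 0.6 and 2.7 CPM in the IMC-like, SC-like and RC-like clusters. The means of 37.4, 73.3 and 222.3 CPM therefore came from a minority of cells. The median depth was 794389 counts in the *Slc4a1*-led cluster and 1809350, 1342834 and 1428841 in the IMC-like, SC-like and RC-like clusters.

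Outside the MC-like cluster 2 cells reached the *Kcne1* level of the lowest MC-like cell. One was an RC-like WT cell of batch 3 (P32) with 1361 CPM of *Kcnq1*, 2417 of *Kcne1*, 255.6 of *Slc12a2* and 15261 of the MC marker *Lrp2*, beside 11037 CPM of the root cell gene *Epyc*. Without it the RC-like means were 179.1 CPM for *Kcnq1*, 75.96 for *Kcne1*, 17.1 for *Slc12a2* and 267.8 for *Stk39* (n = 15). The other was a WT cell of the *Slc4a1*-led cluster (batch 1, P22) with 14604 CPM of *Kcne1* and 61991 of *Lrp2* but 6.87 CPM of *Kcnq1*; without it the *Kcne1* mean of that cluster went from 302.3 to 95.1 CPM. Whether these tubes held more than 1 cell was not tested.

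**Figure D1:**
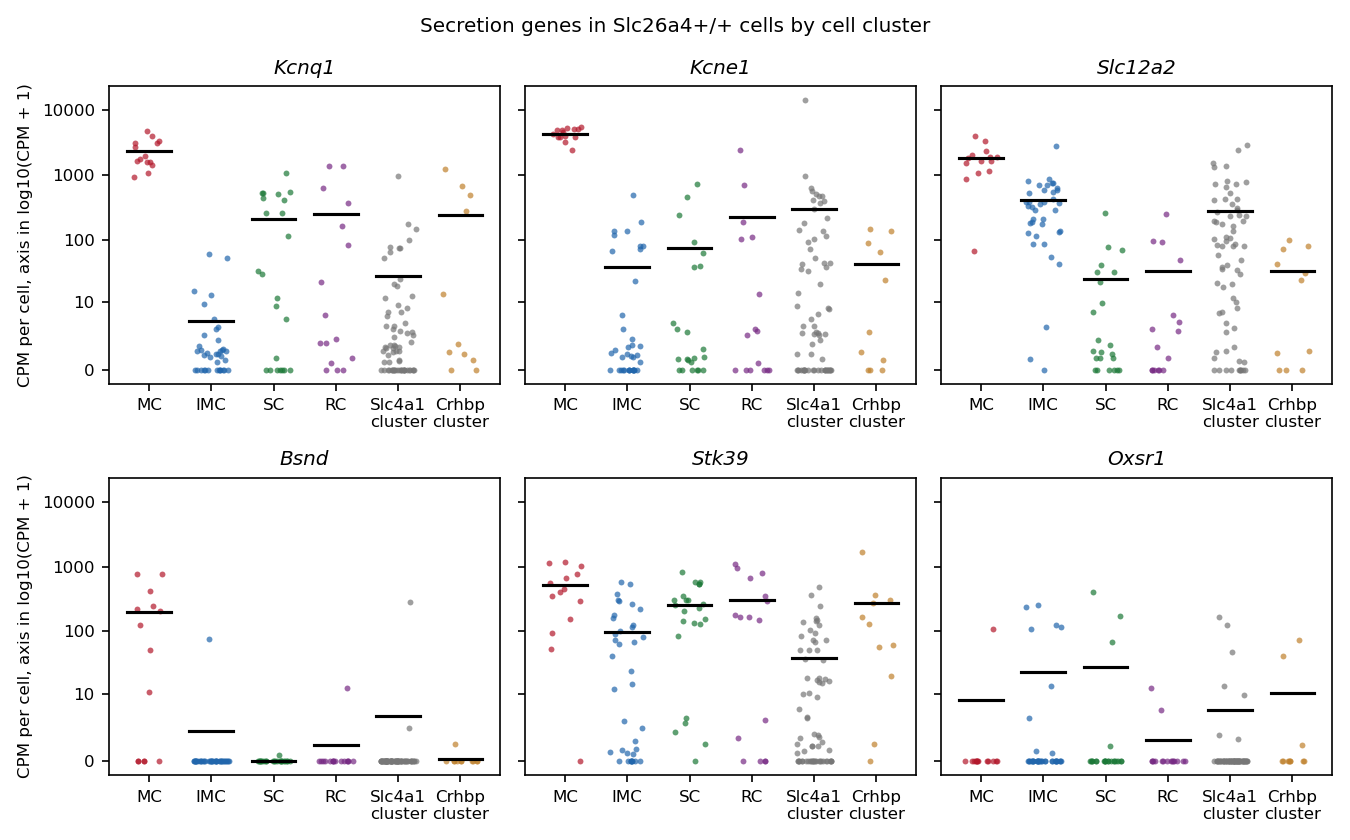
Level of 6 of the genes in each WT cell by cluster, as CPM on a log10(CPM + 1) axis, with 1 point a cell and a black line at the mean. *Kcnq1* and *Kcne1* lie between 944 and 5440 CPM in all 14 MC-like cells, while *Slc12a2* is also high in IMC-like cells (mean 411.6 CPM) and *Stk39* spreads over several clusters.

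Against the next highest named cluster, *Kcnq1* was 3.22 log2 units higher in MC-like than in RC-like cells (3.44, 1.14 and 2.39 in batches 1, 2 and 3; pseudocount 1 CPM throughout). For *Kcne1* the difference from RC-like cells was 4.29 log2 units (7.72, 11.90 and 2.84 in the same batches). The batch 2 values rest on 4 MC-like and 1 RC-like cell. Of the 77 WT cells in the other named clusters, 3 reached the lowest MC-like value of *Kcnq1* and 1 that of *Kcne1*. The scatter of the pair shows the 21 MC-like cells apart from nearly all others in each genotype.

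**Figure D2:**
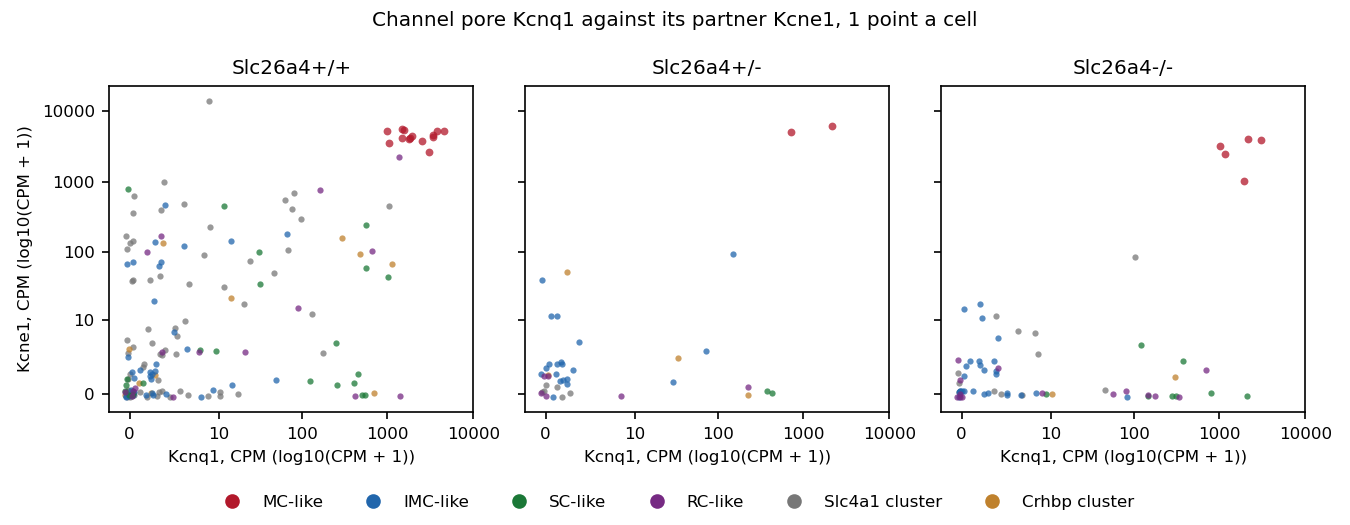
*Kcne1* against *Kcnq1* in every cell, both in CPM on log10(CPM + 1) axes, 1 panel a genotype, colored by cluster, with a small shift added so that points at 0 can be seen. The MC-like cells (14 WT, 2 HET, 5 KO) sit at the upper right, with *Kcnq1* at 807 CPM or more and *Kcne1* at 1123 CPM or more; cells with *Kcnq1* but little *Kcne1* are mostly SC-like and RC-like.

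Within the MC-like cells the levels of both subunits showed no clear relation. Over the 21 cells Pearson's r of log2(CPM + 1) was 0.08 and Spearman's rho 0.13, as a description of cells that share batches and an unknown number of mice. In TPM, the authors' unit of transcript level corrected for length, *Kcne1* averaged 3921 and *Kcnq1* 2147 in WT MC-like cells. The *Kcne1* to *Kcnq1* ratio in TPM ran from 0.535 to 4.71 over the 21 cells with a median of 2.63, and was above 1 in 17.

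*Kcnq1* (ENSMUSG00000009545.14) lies on chromosome 7 at 143106362 to 143427042, plus strand, GRCm38. The Kallisto estimates put 62.1% of its counts in WT MC-like cells on the short transcript ENSMUST00000185383.1 (12 exons, 1535 bases) and 36.3% on the full transcript ENSMUST00000009689.10 (16 exons, 3029 bases). In single MC-like cells the short form took 21.8 to 81.3% of the counts (median 61.2%) and more than 50% in 16 of 21. The short form joins exon 11 straight to the last exon and so leaves out exons 12 to 15 of the full form, 4 exons with 280 bases; its annotated coding region ends at the first base after that junction. The sequences below are shown because only reads over such differing parts can tell the forms apart; the 24 bases in capitals are the end of the shared exon (chr7:143261353-143261376), and the 24 in lower case are the start of the next exon, at chr7:143358710-143358733 in the full form and chr7:143425910-143425933 in the short form, plus strand, GRCm38.
Kcnq1 full form: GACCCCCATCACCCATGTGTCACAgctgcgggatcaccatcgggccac
Kcnq1 short form: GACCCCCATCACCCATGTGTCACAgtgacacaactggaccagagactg
The start of the long antisense RNA *Kcnq1ot1* lies inside *Kcnq1*. Smart-Seq2 does not mark the strand, so reads from antisense RNA over a *Kcnq1* exon could not be told apart from its own.

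*Kcne1* (ENSMUSG00000039639.7) lies on chromosome 16 at 92345982 to 92359468, minus strand. It had 83.9% of its counts on its long transcript (ENSMUST00000051705.6, 3155 bases) and 16.1% on the short one (ENSMUST00000166707.2, 601 bases) in WT MC-like cells. Because of its length the short one held 58.98% of the gene's TPM, so the level of *Kcne1* per length depends on how Kallisto split the reads. The long one took more than 50% of the counts in 20 of 21 MC-like cells (median 84.8%).

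The other KCNE subunits were not part of this pattern. *Kcne2* (chromosome 16, 92292389 to 92298129, plus strand), the neighbor of *Kcne1*, had a count in 6 of all cells, and none of the 21 MC-like cells had one, which allows a share of up to 14.3% of such cells. In 3 cells there were 10 or more counts, with 669, 490 and 306 counts or 348, 409 and 150 CPM. All 3 belonged to the *Crhbp*-led cluster, 1 HET and 2 WT, and held *Kcnq1* at 0, 0 and 1.47 CPM, so that *Kcne2* and *Kcnq1* were not high in the same cell. *Kcne3* (chromosome 7, 100176502 to 100184869, plus strand) had a count in 5 cells and 10 or more in 2: a HET cell of the *Slc4a1*-led cluster with 116.5 CPM and a WT RC-like cell with 53 counts (29.2 CPM). No MC-like cell had a *Kcne3* count either.

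*Slc12a2* (ENSMUSG00000024597.11, chromosome 18, 57878678 to 57946821, plus strand) was high in both MC-like and IMC-like cells. In WT MC-like cells it ranged from 67.5 to 3981 CPM, with a median of 1763 and a mean of 1812 ± 974 (SD, n = 14); session means ran from 878 to 2453 CPM. IMC-like cells averaged 411.6 ± 477 CPM (SD, n = 38), with 10 or more counts in 35 of 38 (92.1%, exact 95% interval 78.6 to 98.3%). The difference of 2.14 log2 units was 1.32, 3.41 and 1.86 in batches 1, 2 and 3, and the groups overlapped: 39 of the 77 other WT cells reached the lowest MC-like cell, which held 67.5 CPM beside 2680 CPM of *Kcnq1*. SC-like and RC-like cells averaged 24.2 and 31.99 CPM, with 10 or more counts in 34.8% and 25%, both below the 52.9% (37 of 70) of the mixed *Slc4a1*-led cells, which averaged 276.7 CPM.

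All 21 MC-like cells, 14 WT, 2 HET and 5 KO, had *Kcnq1*, *Kcne1* and *Slc12a2* together at 10 or more counts each. Among the other clusters 2 of 86 IMC-like, 1 of 33 SC-like, 2 of 36 RC-like, 3 of 88 *Slc4a1*-led and 2 of 17 *Crhbp*-led cells did.

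*Bsnd* (ENSMUSG00000025418.7, chromosome 4, 106483456 to 106492283, minus strand) was rarely counted outside MC-like cells and was uneven within them. Its WT values ran from 0 to 783 CPM, with a median of 87.3 and a mean of 202.8 ± 274.5 (SD, n = 14), and 9 of 14 cells had 10 or more counts (64.3%, 35.1 to 87.2%). In the other WT clusters, 1 of 38 IMC-like, 0 of 23 SC-like, 0 of 16 RC-like, 1 of 70 *Slc4a1*-led and 0 of 11 *Crhbp*-led cells reached 10 counts; the SC-like 0 allows a share of up to 13.04%. *Bsnd* was 6.09 log2 units higher in MC-like than in IMC-like cells, 2.66, 8.95 and 6.75 in batches 1, 2 and 3.

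*Stk39* (ENSMUSG00000027030.15, chromosome 2, 68210445 to 68472268, minus strand), the SPAK kinase, was the more abundant kinase but did not set MC-like cells apart. Its WT MC-like values ran from 0 to 1191 CPM, with a median of 433 and a mean of 513 ± 400 (SD, n = 14). RC-like cells averaged 300.7 ± 367, SC-like cells 257.2 ± 223.9, *Crhbp*-led cells 277.7 ± 480 and IMC-like cells 98.8 ± 150.8 CPM (SD). The difference of 0.77 log2 units from RC-like cells was smaller than its spread between batches, which gave 0.92, -1.42 and 1.28 (SD 1.47). The value of -1.42, in batch 2, rests on 1 RC-like cell. MC-like and RC-like levels of *Stk39* were therefore not told apart. SC-like cells were set beside MC-like cells over all batches only, so no order was read for them either.

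Most *Stk39* counts went to a transcript annotated as retaining an intron. This retained form (ENSMUST00000123781.7, 16 exons, 2038 bases) took 65.5% of the counts and 76.04% of the TPM in WT MC-like cells, against 33.9% of the counts for the coding form (ENSMUST00000102715.3, 18 exons, 3536 bases). Among cells with 10 or more *Stk39* counts, it took more than 50% in 18 of 20 MC-like cells (median 70.7%), 24 of 29 RC-like, 21 of 25 SC-like and 32 of 42 IMC-like cells, so the excess was found in each named cluster. The retained form reads on from exon 16 into the intron for 444 bases. The sequences are shown because they are where both forms part; capitals mark the shared end of exon 16 (chr2:68263235-68263258), and the lower case bases are intron at chr2:68263211-68263234 in the retained form and exon 17 at chr2:68220945-68220968 in the coding form, minus strand, GRCm38.
Stk39 retained form: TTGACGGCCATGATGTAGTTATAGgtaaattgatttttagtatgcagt
Stk39 coding form: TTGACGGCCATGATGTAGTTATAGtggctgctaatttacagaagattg
These shares are Kallisto estimates that rest on the transcript models it was given.

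*Oxsr1* (chromosome 9, 119238432 to 119322427, minus strand), the OSR1 kinase, was low in every cluster. It was held by 1 of 14 WT MC-like cells, at 108.9 CPM, and the means over MC-like, IMC-like, SC-like and RC-like cells were 7.8, 22.9, 27.8 and 1.1 CPM. The median was 0 in each of these clusters. The 3 highest means were each smaller than their SD of 29.1, 63.01 and 89.6 CPM, so no order of clusters was read from them.

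By the fixed rule of size, 4 of the 8 genes (*Kcnq1*, *Kcne1*, *Slc12a2* and *Bsnd*) averaged at least 10 CPM in WT MC-like cells and at least 2-fold above every other named cluster, against 6.14% of the 11340 genes that had such a mean in a named cluster. With *Stk39*, 5 of 8 had their highest mean in MC-like cells, against 19.8% of genes; *Kcne2* and *Kcne3* were under 10 CPM in each named cluster. On the TPM scale, where genes can be compared, the WT MC-like means ran from *Kcne1* (3921) and *Kcnq1* (2147) to *Slc12a2* (346), *Stk39* (328.97), *Bsnd* (100.9) and *Oxsr1* (3.5). The means of *Slc12a2* and *Stk39*, neighbors in this order, lay within the range of either gene over cells (14.8 to 669 and 0 to 818 TPM).

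The wider pathway was represented by 37 genes in 6 lists, of which 27 had a mean of at least 10 CPM in a named cluster. Of the 27, 8 had their highest mean in MC-like cells and 4, *Atp1b2*, *Wnk2* and *Slc12a9* among them, were 2-fold above every other named cluster. *Atp1b2* was 1 of the markers that named the MC-like cluster, so its place in both counts is not independent of the naming. Their median difference from the next cluster was -1.30 log2 units, beside -1.23 for all genes and 2.68 for the 6 secretion genes that had such a mean. In the sodium pump list the beta subunits were high in different cells. *Atp1b2*, also an MC marker, averaged 11475 ± 4435 CPM in MC-like against 1027 in SC-like and 122.7 in IMC-like cells. *Atp1b1* was the reverse, at 398.6 CPM in MC-like against 12737 in IMC-like cells.

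Of the 6 tested WNK kinases and cofactors, *Wnk2*, a WNK kinase upstream of SPAK, averaged 271.2 ± 502 CPM in MC-like and 123.1 ± 140.7 in RC-like cells (SD), less than the spread between cells. Of 4 tested SLC12 cotransporters, the potassium chloride cotransporter KCC4 (*Slc12a7*) averaged 1207 ± 744 CPM in MC-like and 924 ± 1680 in RC-like cells (SD). None of 7 tested regulators of KCNQ1 or potassium secretion had its highest mean in MC-like cells; the kinase gene *Sgk1* averaged 422 CPM there and 667 in RC-like cells. Of the other KCNQ and KCNE subunits, 2 were tested and neither was highest in MC-like cells.

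The genes most like each member were taken over the WT cells with at least 100000 counts, by Pearson's r of log2(CPM + 1) among 12911 genes, as a description over cells that share clusters, batches and depth. For *Kcnq1* they were *Enpep* (0.65), *Itgb5* (0.65), *Car12* (0.64), *Atp2c2* (0.64) and *Lrp2* (0.63), and *Kcne1* ranked 14th (0.59). For *Kcne1* they were *Dnase1* (0.73), *Rspo3* (0.68), *Spp1* (0.64), *Esrrb* (0.63) and *Mt3* (0.62). For *Slc12a2* they were *Sparcl1* (0.76), *Ptgds* (0.63), *Ckb* (0.63) and *Gsta4* (0.61), and *Kcnq1* was far down that order. *Bsnd* was nearest to *Nipal1* (0.65), *Rspo3* (0.55), *Tacr3* (0.55), *Tmem45b* (0.54) and *Cacnb2* (0.53), and *Stk39* to *Epn3* (0.62), *Dclk1* (0.53), *Lmx1a* (0.51), *Ephx1* (0.51) and *Slc44a3* (0.51). *Rspo3* stood among the nearest genes of both *Kcne1* and *Bsnd*.

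The *Slc26a4* genotypes were compared to ask whether the secretion genes of MCs differ where pendrin is missing. *Kcnq1* was 3380, 2100, 2082, 972 and 1039 CPM in the 5 KO MC-like cells (mean 1915 ± 983, SD), all inside the WT range. *Kcne1* was 3575, 1123, 3798, 3038 and 2710 CPM in the same cells (mean 2849 ± 1056, SD). Of these, 4 lay inside the WT range and 1 below it. *Slc12a2* was 1650, 1122, 1452, 1128 and 754 CPM (mean 1221 ± 344, SD), again inside the WT range.

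The KO minus WT differences in MC-like cells were -0.31 log2 units for *Kcnq1*, -0.61 for *Kcne1* and -0.57 for *Slc12a2*. Leaving out 1 cell at a time moved them between -0.62 and -0.14, -0.74 and -0.41, and -0.70 and -0.43. With cells named by their highest marker score the signs turned, to 0.64 for *Kcnq1*, 0.12 for *Kcne1* and 0.43 for *Slc12a2*, and without batch 4 *Kcnq1* was at 0.21, so no direction was read. Batch 2 alone, with 4 WT and 2 KO cells, gave -0.17, -0.70 and -0.62. *Bsnd* was 218.3, 0, 561, 280.6 and 126.5 CPM in KO cells and *Stk39* 73, 112.5, 245.97, 811 and 391, both inside the WT range. Their differences of 0.23 and -0.65 log2 units became -2.17 and -2.12 within batch 2. None of the 5 genes with a mean of at least 10 CPM in these cells was past 2-fold, against 52.5% of 9048 genes and 39.2% of the genes with a mean of at least 100 CPM.

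**Figure D3:**
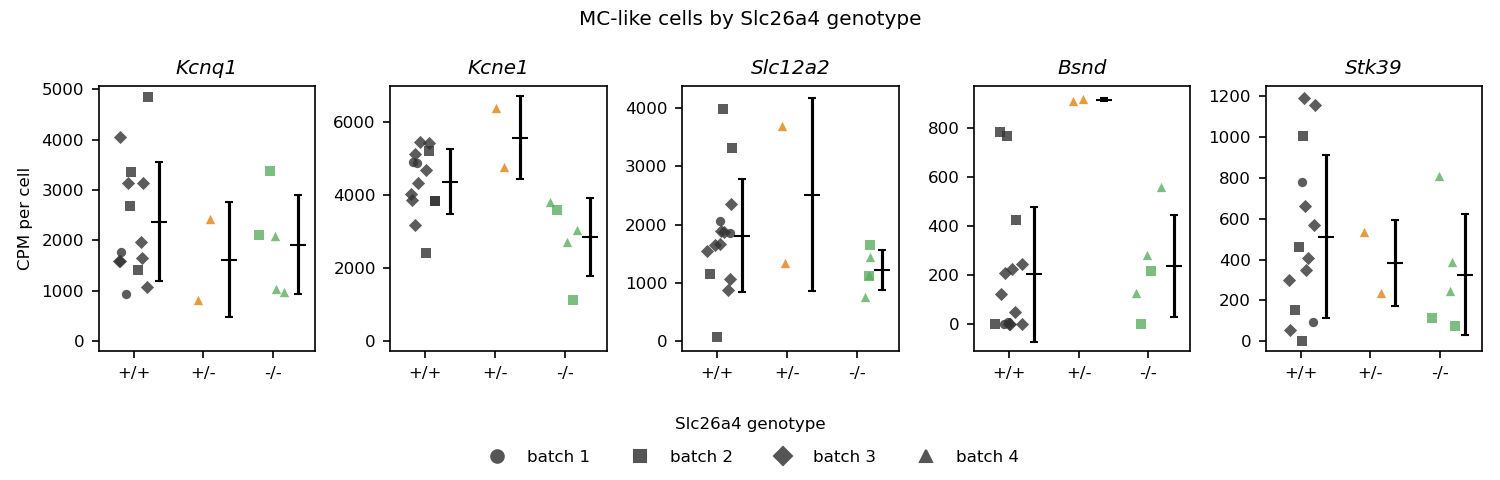
Level in CPM of *Kcnq1*, *Kcne1*, *Slc12a2*, *Bsnd* and *Stk39* in each of the 21 MC-like cells by genotype, with the mean and SD over cells as bars and the marker shape giving the batch. KO cells overlap WT cells in all 5 panels, and both HET cells lie above all others for *Bsnd* (910 and 918 CPM).

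The 2 HET MC-like cells, both of batch 4, held *Kcnq1* at 2419 and 807 CPM, *Kcne1* at 6361 and 4755 and *Slc12a2* at 3688 and 1344. *Bsnd* was 910 and 918 CPM in them, above all 19 other MC-like cells, whose highest value was 783 CPM. No WT MC-like cell was of batch 4, so genotype and batch cannot be told apart here; the 3 KO cells of that batch averaged 322.6 CPM of *Bsnd*.

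Of the pathway genes, 24 had a mean of at least 10 CPM in WT or KO MC-like cells. In KO cells 5 were past 2-fold higher, *Clcn2*, *Wnk1*, *Nedd4l* and *Sgk1* among them, and 5 lower, *Clcn3*, *Wnk2*, *Slc12a9* and *Prkaca* among them, beside 26.1% and 26.4% of all genes. No sodium pump subunit was past 2-fold.

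In IMC-like cells *Slc12a2* averaged 411.6 ± 477 CPM in 38 WT, 172.8 ± 178.2 in 20 HET and 128.9 ± 151.5 in 28 KO cells (SD). The ranges overlapped, from 0 to 2839 in WT, 0.8 to 600 in HET and 0 to 541 in KO cells. The KO minus WT difference was -1.67 log2 units over all cells, -0.63 in batch 2 and -1.38 in batch 4. The share of cells with 10 or more counts was 92.1% in WT (35 of 38), 18 of 20 in HET and 24 of 28 in KO.

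*Stk39* in IMC-like cells averaged 98.8 ± 150.8 CPM in WT, 18.9 ± 25.5 in HET and 16.7 ± 29.2 in KO cells (SD). Its KO minus WT difference was -2.50 log2 units over all cells, -1.90 in batch 2 and -4.10 in batch 4. *Kcne1* averaged 37.4, 8.5 and 2.2 CPM in the same order of genotypes. Its difference was -3.58 log2 units over all cells and -5.54 in batch 4 (0.99 CPM in KO against 91.2 in WT). That WT mean is over 7 cells with a median of 0 CPM. Of these, 2 had 10 or more counts, and the highest held 500.6 CPM. In batch 2 both means were under 10 CPM (3.0 in KO and 0.07 in WT). With *Kcne1*, *Slc12a2* and *Stk39*, 3 of 4 genes tested in IMC-like cells were past 2-fold lower in KO, against 17.3% of 9474 genes. *Kcne1* met the minimum of 10 CPM only through its WT mean, so its place among the 3 was largely set by that filter. Its WT median was 0.7 CPM, and 10 of 38 WT cells had 10 or more counts. Within batch 2 only *Stk39* was past 2-fold lower. The marker levels of these cells moved too: the IMC markers summed to a mean of 44999 CPM in WT, 85280 in HET and 75785 in KO cells (lowest cells 9627, 35029 and 30958), and the MC markers to 257.8, 104.2 and 143.2 CPM. Their part in these differences was not tested.

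In SC-like and RC-like cells together, 2 of 5 tested genes (*Kcne1* and *Slc12a2*) were past 2-fold lower in KO, against 22.2% of 10367 genes. Without the RC-like cell with MC genes *Kcne1* alone was. Here too *Kcne1* met the minimum of 10 CPM only through its WT mean (134.4 CPM, against 0.5 in KO). *Kcnq1* averaged 226.997 CPM in 39 WT and 268.5 in 22 KO cells, 0.24 log2 units apart, and -0.37 and -0.16 in batches 2 and 4. The WT cells of batch 2 were 2 SC-like cells averaging 4.3 CPM and 1 RC-like cell at 1397 CPM. Batch 4 had no SC-like KO cell, so cell type and genotype cannot be told apart in either batch value. Taken apart, *Kcnq1* was higher in KO in SC-like cells (536.5 ± 734 against 208.97 ± 289.5 CPM, SD, n = 8 and 23) and lower in RC-like cells (115.4 ± 215.1 against 252.9 ± 473, SD, n = 14 and 16), in each case by less than the spread between cells, and past 2-fold differences were found for 57.2% of genes in the SC-like and 50.8% in the RC-like cluster. The SC-like KO mean includes 1 cell at 2272 CPM. In the same SC-like cells the MC markers summed to a mean of 9490 CPM in KO and 4834 in WT, and the SC markers to 12397 and 44326; their part was not tested. *Stk39* went the other way, at 106.8 ± 171.7 CPM in KO against 257.2 ± 223.9 in WT SC-like cells and 615.6 ± 550 against 300.7 ± 367 in RC-like cells (SD). All 8 KO SC-like cells were of batch 2, which held 2 WT ones.

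*Kcne1* outside MC-like cells differed in share between genotypes over all batches, but batch 2 did not set an order. Over IMC-like, SC-like and RC-like cells together, 22 of 77 WT cells had 10 or more counts (28.6%, exact 95% interval 18.8 to 40.0%), 4 of 28 HET cells (14.3%, 4.03 to 32.7%) and 3 of 50 KO cells (6.0%, 1.25 to 16.5%). *Kcnq1* had 22 of 77, 6 of 28 and 14 of 50 in the same order. Within batch 2 the *Kcne1* counts were 0 of 8 WT and 3 of 32 KO cells. With 8 WT cells, a share of 0 does not set an order of genotypes there. Within batch 4 they were 5 of 15 WT, 4 of 28 HET and 0 of 18 KO cells. Median depth was 1797603 counts in WT and 630659 in KO cells of batch 2. In batch 4 it was 1796498 in WT, 2445817 in HET and 3415772 in KO cells. The part of depth in these shares was not tested. In the *Slc4a1*-led cluster it was 19 of 70 WT, 0 of 6 HET and 2 of 12 KO cells. The MC marker *Lrp2* had 10 or more counts in 59 of 77 WT, 27 of 28 HET and 30 of 50 KO cells of the same clusters, another order of genotypes than that of *Kcne1*. *Esrrb* and *Dnase1* ran in the order of *Kcne1*, with 12 of 77, 2 of 28 and 2 of 50 cells for *Esrrb* and 46 of 77, 13 of 28 and 20 of 50 for *Dnase1*, whereas *Heyl* (13, 5 and 7 cells) and *Spp1* (57, 27 and 35 cells) did not. Their part in the *Kcne1* shares was not tested.

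**Figure D4:**
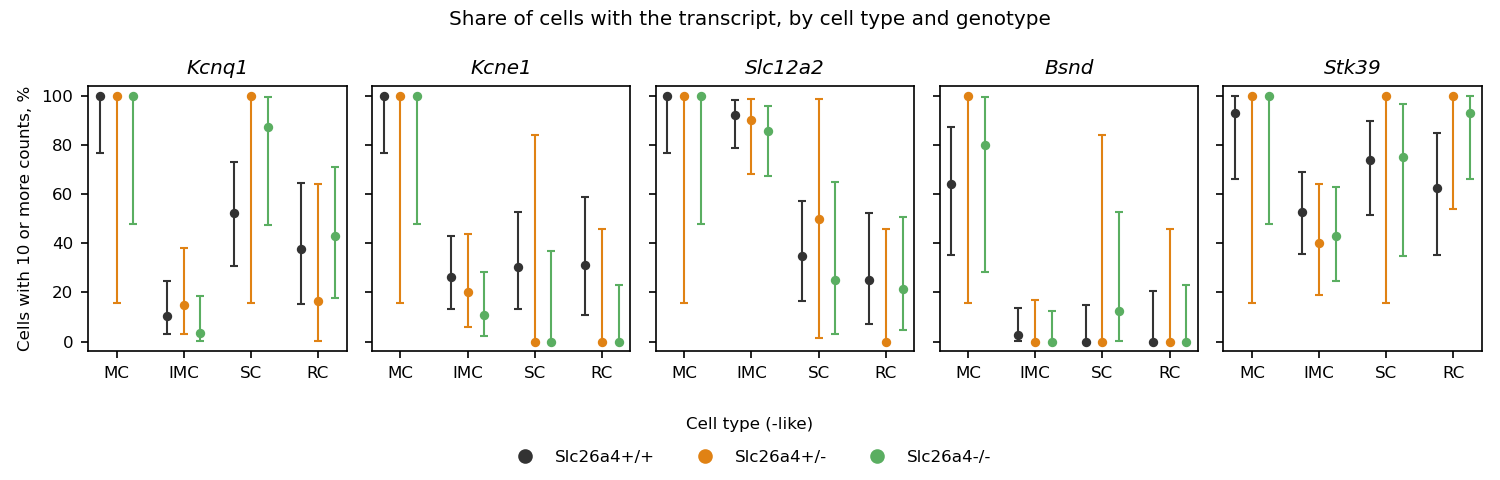
Percent of cells with 10 or more counts of 5 of the genes, by named cluster and genotype, as points with exact 95% binomial intervals that cover counting error only. *Kcnq1*, *Kcne1* and *Slc12a2* are at 100% in MC-like cells of every genotype, and *Kcne1* in WT cells is at 26.3, 30.4 and 31.3% for the IMC-like, SC-like and RC-like clusters.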

How the data were processed

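Single-cell libraries were aligned by the authors to the mouse transcriptome (mm10, GRCm38) with Kallisto, whose version is not given in the sources used here. The authors deposited estimated counts per gene, as whole numbers and not normalized, in 1 table for all cells, and for each cell the estimated counts and the TPM of each transcript. The gene table has 298 columns, of which 17 match no sample here and were not used. Per cell, a median of 0.691% of transcript counts belonged to transcripts with no gene in the map. CPM was computed from each cell's total estimated count, rounded by the authors to whole numbers; the total ranged from 1848 to 7932729, which limits shares in shallow cells. TPM was summed over transcripts of a gene by the GENCODE annotation in the reference (GRCm38).

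Counts were clustered with Seurat 5.3.0 (R 4.3.3) on 10 principal components at resolution 0.8, from 2000 variable genes less 13 secretion and pathway genes (1987 used). Names required that 80% or more of a cluster's cells had their top score on 1 marker list, that 3 or more of its markers were detected, and that the 10 leading genes held no more markers of another list. Some SC and RC markers (*Krt8*, *Anxa5*, *Wfdc18*, *Emb*, *Map1b*, *Fxyd6*) had been chosen by the study on these cells. The MC marker *Atp1b2* and the IMC marker *Nrp2* are also among the cluster-defining genes that the study showed from them. The MC markers *Lrp2*, *Esrrb*, *Slc22a4* and *Hgf* are among the known deafness genes that it listed for MCs. None of the cluster names, MC-like included, is therefore independent of the study. No doublet caller was run on these hand-picked cells. Batches are the run dates carried by the profiles. Statistics used Python 3.11.15, numpy 2.4.6, pandas 2.3.3, scipy 1.17.1 and matplotlib 3.10.9.

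A gene was called between groups at a log2 ratio of at least 1 of mean CPM plus 1. Its mean had to be at least 10 CPM in either group (for cell types, in a named cluster). The rule was run on simulated counts with larger groups than the KO MC-like one and less spread between cells than many genes have here. That run cannot give the error rate of the rule in these cells. Intervals are exact Clopper-Pearson at 95%. For a share of 0, a limit of 3 cells of the total is given for *Kcne2* in MC-like and *Bsnd* in SC-like cells only. The secretion genes, pathway lists and markers were chosen with earlier results of these data known. The text names all 8 secretion genes, the 8 pathway genes of highest mean in WT MC-like cells (other pathway genes are named only where a count of 5 or fewer lists them, after their values were seen; some genes that these rules name are not reported here) and, for each secretion gene averaging at least 100 CPM in a named cluster, the 5 genes of highest correlation that were detected in at least 10% of cells. Alternatives were another resolution, other principal components, naming by marker score, WT cells alone, other pseudocounts and minimum means, and leaving out each batch or a doubted cell. RefSeq promoters (GRCm38) were matched for 4 of the 8 genes and searched on both strands, with those of all genes, for AAGGTCA.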

Additional observations from a re-analysis of the deposited data

Results flagged for a closer look

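In 11 of 18 combinations of a gene and a group of 4 to 10 cells, 1 cell stood far above the rest by Dixon's criterion. Its chance rate of about 1 in 20 holds for normally distributed values, not for CPM with many zeros, so no excess was read. Groups were checked only at a mean of at least 10 CPM. Some reached that mean only through the flagged cell, such as *Bsnd* in SC-like KO cells (mean 10.9 CPM). The combinations share groups of cells, and all 11 fall in 4 such groups. For *Kcnq1* these were an RC-like HET cell at 221.8 CPM (next cell 5.95), an SC-like KO cell at 2272 CPM (next 734) and a *Crhbp*-led HET cell at 227.5 CPM (next 32.6). For the other KCNE genes they were *Crhbp*-led HET cells at 48.9 CPM of *Kcne1* (next 2.21) and 347.8 CPM of *Kcne2* (the others at 0), and an *Slc4a1*-led HET cell at 116.5 CPM of *Kcne3* (the others at 0). *Slc12a2* stood out in an SC-like KO cell at 95.9 CPM (next 28.5) and in an *Slc4a1*-led HET cell at 593.2 CPM (next 5.73). *Bsnd* was at 87.3 CPM in 1 SC-like KO cell, with the 7 others at 0. *Stk39* was at 1648 CPM in an RC-like HET cell (next 584.5) and at 520.0 CPM in an SC-like KO cell (next 104.7).

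The KO minus WT differences pointed opposite ways for 3 genes between the SC-like and RC-like clusters, and the difference between them was not tested. For *Kcnq1* it was 2.48 log2 units (1.36 for SC-like, -1.13 for RC-like cells). It was -2.29 for *Stk39* (-1.26 and 1.03) and -8.04 for *Oxsr1* (-4.85 and 3.19), whose means were all under 30 CPM. In SC-like cells *Oxsr1* met the 10 CPM minimum only through WT (27.8 CPM, against 0 in KO). In RC-like cells it did so only through KO (18.2 CPM, against 1.1 in WT). Its opposite signs were thus largely set by that filter. The SC-like WT cells had a median of 0, with 10 or more counts in 3 of 23 and 1 cell at 401 CPM. All KO SC-like cells were of batch 2.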

How the results depend on the processing

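*Kcnq1*, *Kcne1*, *Slc12a2*, *Bsnd* and *Stk39* numbered 5 genes highest in MC-like cells under all 15 alternatives run, and the number 2-fold above every other named cluster was 3 to 5 over 17. Between KO and WT MC-like cells the uncalled signs of *Kcnq1*, *Kcne1*, *Slc12a2* and *Stk39* turned with marker scores (0.64, 0.12, 0.43 and 0.07 log2 units). The number of pathway genes 2-fold higher in MC-like cells, 4 in the report, was 2 with cells named by marker score and 9 with WT cells clustered alone. Between KO and WT MC-like cells no gene was past 2-fold, but 1 was with marker scores (*Bsnd*, higher in KO), 1 without batch 2 (*Bsnd*, higher), 1 without batch 4 (*Stk39*, lower) and 2 within batch 2 (*Bsnd* and *Stk39*, lower). For IMC-like cells 3 became 1 within batch 2. For SC-like and RC-like cells together 2 became 5 at resolution 0.4, 1 with a pseudocount of 10 CPM, 4 with a minimum mean of 1 CPM, 4 without batch 2, 1 without batch 4, 1 within batch 2 and, in an alternative chosen after seeing the data, 1 without the RC-like cell with MC genes. The causes were not tested. Against the next cluster, *Slc12a2* moved to 0.64 log2 units with marker scores, and *Kcnq1* and *Stk39* to 7.79 and 2.94 with WT cells alone. All other values of single genes moved by less than their spread between cells or batches. For KO minus WT in MC-like cells that spread was wide for *Bsnd* and *Stk39* (5.45 and 3.00 log2 units). It thus takes in changes of sign, as for *Bsnd*, which ran from -2.17 to 1.89 log2 units. KO and WT MC-like cells could not be compared within batch 4, which held no WT one. No paired analysis was possible because each genotype is 1 sample and cell numbers are not shared between genotypes. With 21 MC-like cells, 5 of them KO, from an unknown number of mice and without a test, the smallest detectable difference was not estimated.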

Other observations

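Promoter windows, the 250 bases before the RefSeq start, were matched for *Kcne2*, *Kcne3*, *Stk39* and *Oxsr1*, in 6 windows. None held AAGGTCA, the site bound by estrogen-related receptors such as *Esrrb*, an MC marker, on either strand, beside 4.08% of the 32851 windows of all genes. The promoters of the genes that were highest in MC-like cells other than *Stk39* were not analysed here.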
